A study of Mus musculus with 8 samples.

Results

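The RNA of the left ventricle of mice was examined for 10 genes that are used to tell macrophages of different origin and state apart. The genes were picked by name, with earlier results of these data known and with no threshold on a measured value, and all 10 were found among the 55679 genes of the deposited expression table and tested. Of these, 9 are described here, namely 5 resident markers (Lyve1, Timd4, Folr2, Mrc1 and Cd163) and 4 markers of recruited or activated macrophages and monocytes (Lgals3, Ms4a7, Gpnmb and Ly6c2), and the counts, medians and sums of both sets are over these 9. The samples were 8 left ventricle libraries from male wild-type C57BL/6J mice. The control mice (4 libraries) received saline, and the ANG II mice (4 libraries) received angiotensin II, the pressor peptide of the renin-angiotensin system, at 1500 ng/kg/min, each for 7 days through an osmotic pump implanted under the skin. All hearts were flushed with saline before the ventricle was taken, and the whole ventricle was sequenced, so that macrophages were 1 cell type among many and no cells were sorted. The methods of the study state more biological replicates per group than the libraries analysed here, and whether a library holds a single animal or a pool was not given in the sources used here, so that every n counts libraries. In such bulk tissue, fewer cells of a type and less RNA per cell cannot be told apart.

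The heart holds macrophages that settle before birth and renew themselves by division, and others that come from blood monocytes throughout life. Self-renewing cardiac macrophages are known for the hyaluronan receptor LYVE1, the phosphatidylserine receptor TIM4 and the folate receptor FOLR2, and they lack the chemokine receptor CCR2. Monocytes enter an injured heart through CCR2, first carry much Ly6C on their surface, and as they turn into macrophages come to express galectin-3 and lysosomal proteins.

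Expression was given as FPKM, the fragment count of a gene scaled by transcript length and by library size, which is a level per length. The libraries held 14455690 to 16564854 fragments in control and 15118860 to 15975921 in ANG II, as read from the steps of the FPKM values. Of these, 26.3 to 26.95% came from mitochondrially encoded genes in control and 19.2 to 21.8% in ANG II. Libraries of a group were not alike within sampling noise, and nothing in the labels marked a batch. Calls required a log2 fold change above 0.5 in size together with an adjusted p-value under 0.05 (limma on log2(FPKM + 1), Benjamini-Hochberg adjustment over 19364 genes). On this scale 14.0% of all genes tested were called higher and 1.41% lower in ANG II, with a median log2 fold change of 0.15 over all genes, and 28.7% were higher and 5.06% lower with no overlap between the groups. Every log2 fold change is ANG II minus control on the log2(FPKM + 1) scale, which understates the change of genes near or under 1 FPKM.

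After ANG II, all 4 recruited or activated markers described rose (were called higher), namely Lgals3, Ms4a7, Gpnmb and Ly6c2. Of the 5 resident markers 1 rose, namely Mrc1, beside 14.0% of all genes tested. The groups overlapped for Ly6c2, which was called. They did not overlap for Cd163, which was not called (log2 fold change 0.43, limma adjusted p = 0.0154). No marker of either set was called lower in the main limma fit or by voom on the recovered fragments. Voom called 18.9% of all genes higher and 2.04% lower. At an unadjusted p-value under 0.05, 1 marker (Timd4) was lower. Limma called Timd4 lower after quantile normalization (-0.65), which called 5.09% of all genes lower, and without control library 3 (-0.59). The median log2 fold change was 2.07 over the recruited markers and 0.43 over the resident markers. With median-of-ratios scaling these medians were 1.90 and 0.22, and with quantile normalization 1.80 and 0.18. The summed FPKM of the 4 recruited markers was 4.94 to 10.2 in control and 51.6 to 68.5 in ANG II. The summed FPKM of the 5 resident markers was 39.6 to 45.4 in control and 54.4 to 76.1 in ANG II. The resident sum was thus above the recruited sum in each control library, whereas both sums were of similar size in ANG II, with the resident sum higher in libraries 1, 2 and 3 and lower in library 4. The difference between both sets was not tested.

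**Figure D1:**
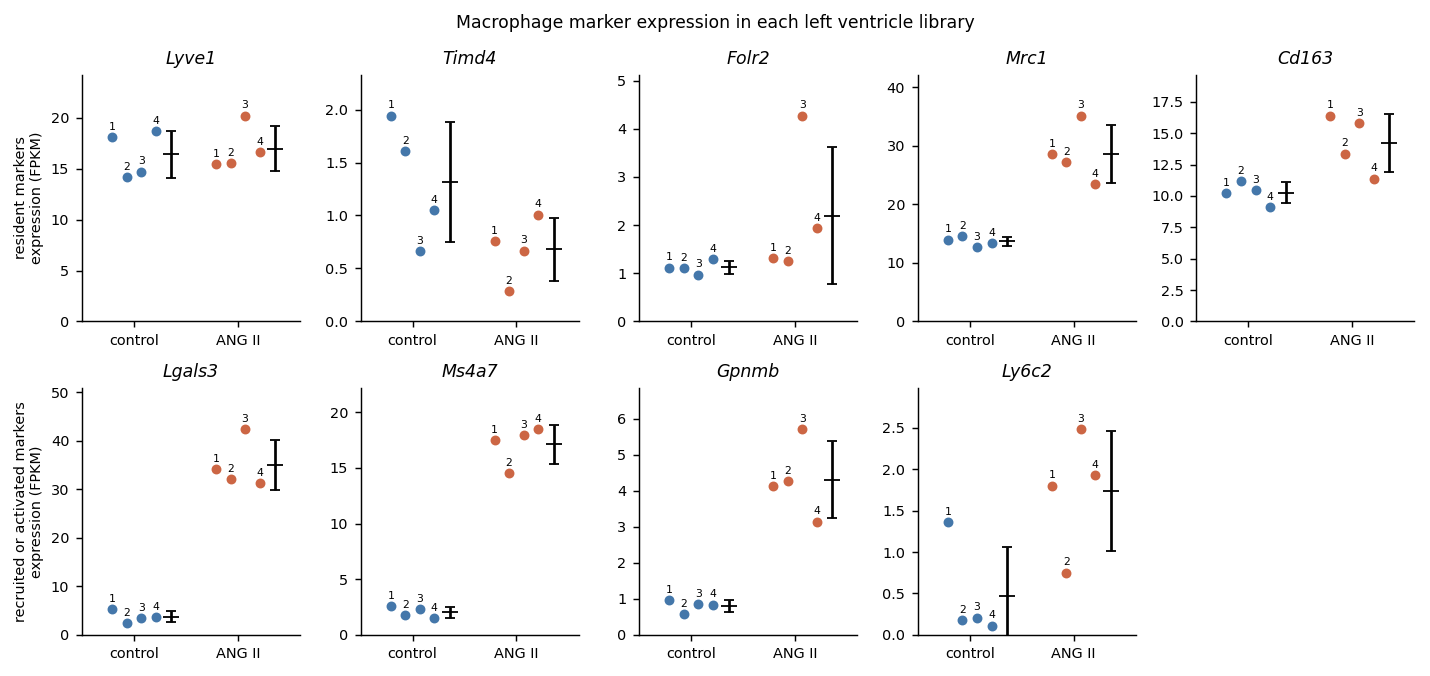
Expression (FPKM, each panel with its own axis from 0) of the 5 resident markers (upper row) and the 4 recruited or activated markers (lower row) in the 4 control (blue) and 4 ANG II (orange) libraries, numbered by replicate, with bars for the mean and SD of each group (n = 4, lower ends under 0 are not drawn). Lgals3, Ms4a7 and Gpnmb lie higher in all 4 ANG II libraries than in any control library, as do Mrc1 and Cd163 of the resident set, while the groups overlap for Lyve1, Timd4 and Folr2, and Ly6c2 of control library 1 (1.36 FPKM) lies above ANG II library 2 (0.75 FPKM).

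Among the surface receptors of the resident set, Mrc1 (mannose receptor CD206, which takes up glycoproteins) was measured at 13.96, 14.6, 12.7 and 13.4 FPKM in control libraries 1 to 4 and at 28.6, 27.2, 35.1 and 23.4 FPKM in ANG II libraries 1 to 4. The groups did not overlap, and the mean of 28.6 ± 4.87 FPKM in ANG II was 2.09 times that of 13.7 ± 0.768 FPKM in control (mean ± SD, n = 4 each). This gave a log2 fold change of 1.00 (SE 0.107, adjusted p = 0.000127 by limma). Mrc1 (ENSMUSG00000026712) lies on chromosome 2, 14229392 to 14332057, on the forward strand (GENCODE M21, GRCm38).

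Cd163 (the scavenger receptor for haptoglobin-hemoglobin complexes) was at 10.2, 11.2, 10.5 and 9.13 FPKM in control and at 16.4, 13.4, 15.8 and 11.4 FPKM in ANG II. All 4 ANG II libraries lay above all control libraries, although ANG II library 4 lay only just above control library 2. The means were 10.2 ± 0.843 and 14.2 ± 2.30 FPKM (mean ± SD, n = 4 each), a ratio of 1.39. Its log2 fold change of 0.43 (SE 0.112, adjusted p = 0.0154 by limma) passed the p-value threshold but not the fold change threshold, so Cd163 was not called. Without ANG II library 4 the log2 fold change was 0.52 (limma adjusted p = 0.00386), past both thresholds. It was 0.22 with median-of-ratios scaling, 0.18 with quantile normalization and 0.29 without mitochondrial and the 10 most abundant genes in the scaling, past neither threshold (limma adjusted p = 0.189, 0.284 and 0.0769). Cd163 (ENSMUSG00000008845) lies on chromosome 6, 124304656 to 124330527. CD163 and CD206 are often used together as surface markers of macrophages in quiet tissue, and the level of Cd163 for each unit of Mrc1 was 0.679 to 0.822 in control and 0.4496 to 0.574 in ANG II.

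Lyve1 (hyaluronan receptor, ENSMUSG00000030787, chromosome 7, 110850607 to 110863239) was the resident marker with the highest mean in control. It was at 18.1, 14.2, 14.7 and 18.7 FPKM in control and at 15.5, 15.6, 20.2 and 16.6 FPKM in ANG II. The groups overlapped over most of their range, at 16.4 ± 2.29 and 16.97 ± 2.23 FPKM (mean ± SD, n = 4 each). At 0.05 on the log2 scale (SE 0.112, 95% interval -0.21 to 0.30, adjusted p = 0.791 by limma), Lyve1 was not called. Under median-of-ratios scaling the value was -0.17, and its sign also depended on single libraries.

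LYVE1 is also a protein of lymphatic endothelium, so lymphatic genes were read beside it. Of 6 lymphatic endothelium genes, 2 rose (Ccl21a, which draws cells into lymphatic vessels, with a log2 fold change of 1.01, and Pdpn, podoplanin, with 0.94) and none was called lower. The count of calls was 4 without control library 4 or with a pseudocount of 0.1, and 5 with voom, and with median-of-ratios scaling or quantile normalization 1 gene was called lower beside 2 higher. Their summed FPKM was 40.6 to 45.6 in control and 55.2 to 69.5 in ANG II. Prox1, the transcription factor of lymphatic identity, which cardiomyocytes also express, had the highest mean of the list in control and a log2 fold change of -0.40 (limma adjusted p = 0.0206), under the fold change threshold. The part of lymphatic RNA in the Lyve1 level was not tested.

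Timd4 (TIM4, which binds phosphatidylserine on dying cells, ENSMUSG00000055546, chromosome 11, 46810800 to 46844332) was at 1.94, 1.61, 0.667 and 1.05 FPKM in control and at 0.759, 0.289, 0.670 and 1.01 FPKM in ANG II. These levels rested on 24 to 61 fragments per control library and 10 to 35 per ANG II library. Control libraries 1, 2 and 4 lay above all ANG II libraries, library 4 only just, whereas control library 3 lay within the ANG II range. Timd4 was the only one of the 9 markers with a lower mean in ANG II, 0.681 ± 0.298 against 1.32 ± 0.568 FPKM (mean ± SD, n = 4 each), or 1.93 times higher in control. The log2 fold change of -0.45 (SE 0.198, 95% interval -0.89 to -0.005) did not pass the adjusted test (limma adjusted p = 0.113). It passed without control library 3 (-0.59, limma adjusted p = 0.0413) and after quantile normalization, which called 7.3% of all genes higher and 5.09% lower (-0.65, limma adjusted p = 0.0265).

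Folr2 (folate receptor beta, ENSMUSG00000032725, chromosome 7, 101839988 to 101857194) was at 1.12, 1.11, 0.975 and 1.30 FPKM in control and at 1.31, 1.25, 4.27 and 1.94 FPKM in ANG II. The spread within ANG II came mainly from library 3, which held 52 fragments against 16 to 25 in the others. The log2 fold change was 0.50 (SE 0.243, adjusted p = 0.148 by limma), and it was 0.23 (limma adjusted p = 0.234) without ANG II library 3. A total of 63.1% of the exonic length of Folr2 is covered on the opposite strand by the predicted gene Gm10602, and since the use of strand in counting was not given in the sources used here, reads of both genes cannot be told apart.

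Among the recruited or activated markers, Lgals3 (galectin-3, a lectin of activated macrophages that binds galactosides) had the highest fold change of the 9 genes. It was at 5.30, 2.46, 3.47 and 3.68 FPKM in control and at 34.1, 32.0, 42.4 and 31.2 FPKM in ANG II. The lowest ANG II library was thus far above the highest control library. The mean of 34.9 ± 5.12 FPKM was 9.38 times that of 3.72 ± 1.18 FPKM (mean ± SD, n = 4 each), and the log2 fold change came to 2.95 (SE 0.168, adjusted p = 4.7e-06 by limma). Lgals3 (ENSMUSG00000050335) lies on chromosome 14, 47367751 to 47386160. In the galectin family beside Lgals3, 7 of 8 genes were tested, of which 3 rose and 1 fell. The genes that rose were Lgals3bp (a binding partner of galectin-3, 1.05), Lgals1 (galectin-1, 0.89) and Lgals2 (0.58), and the gene that fell was Lgals4 (-0.68, limma adjusted p = 0.0225). Lgals9 (0.29) and Lgals8 (0.31) were not called.

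Ms4a7 (a tetraspan membrane protein of monocyte-derived macrophages) was at 2.58, 1.73, 2.29 and 1.49 FPKM in control and at 17.5, 14.6, 17.9 and 18.5 FPKM in ANG II. Its ANG II libraries were the most alike of all markers that rose, relative to their mean. The means were 2.02 ± 0.502 and 17.1 ± 1.75 FPKM (mean ± SD, n = 4 each), a ratio of 8.46 and a log2 fold change of 2.59 (SE 0.130, adjusted p = 3.1e-06 by limma). Ms4a7 (ENSMUSG00000024672) lies on chromosome 19, 11321039 to 11336146, in a cluster of related genes. Of 12 other Ms4a genes listed, 10 were tested, 6 rose and none was called lower. The highest fold changes were those of Ms4a6d (1.87), Ms4a4c (1.44) and Ms4a6c (1.25), all known from monocytes and macrophages. Ms4a4a (0.91, limma adjusted p = 0.0776) and Ms4a4d (0.49, limma adjusted p = 0.015) were not called.

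Gpnmb (a transmembrane glycoprotein of lipid-laden and lysosome-rich macrophages) was at 0.963, 0.572, 0.841 and 0.838 FPKM in control and at 4.12, 4.26, 5.71 and 3.14 FPKM in ANG II. The groups did not overlap. The control values rested on 15 to 25 fragments per library and the ANG II values on 90 to 155. The means were 0.804 ± 0.165 and 4.31 ± 1.06 FPKM (mean ± SD, n = 4 each), a ratio of 5.36 and a log2 fold change of 1.54 (SE 0.151, adjusted p = 7.91e-05 by limma). Gpnmb (ENSMUSG00000029816) lies on chromosome 6, 49036546 to 49070929.

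Mrc1, Lgals3, Ms4a7 and Gpnmb were called higher with no overlap between the groups, and the sequences around their transcription starts are shown. RefSeq promoters (GRCm38.p6, 250 bases before to 50 bases after the start, written in the direction of the gene) were matched for 8 of the 9 markers, with 11 promoters in all, and Lyve1 had no entry. Both strands were searched for GAGGAA (the core bound by PU.1, the factor encoded by Spi1), TCACGTG or TCATGTG (the M-box of the MITF family), TGACTCA (the AP-1 site) and TGCTGAC (a core bound by Maf factors), and no match overlapped another. Capitals mark every match, and on the reverse strand GAGGAA reads TTCCTC.
Mrc1, chr2:14229164-14229463, forward strand: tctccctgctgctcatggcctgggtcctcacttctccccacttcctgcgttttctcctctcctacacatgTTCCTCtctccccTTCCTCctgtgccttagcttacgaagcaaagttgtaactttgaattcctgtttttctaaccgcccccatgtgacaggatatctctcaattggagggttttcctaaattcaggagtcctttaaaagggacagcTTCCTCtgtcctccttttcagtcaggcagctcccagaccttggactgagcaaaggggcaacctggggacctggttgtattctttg
Lgals3, chr14:47373610-47373909, forward strand: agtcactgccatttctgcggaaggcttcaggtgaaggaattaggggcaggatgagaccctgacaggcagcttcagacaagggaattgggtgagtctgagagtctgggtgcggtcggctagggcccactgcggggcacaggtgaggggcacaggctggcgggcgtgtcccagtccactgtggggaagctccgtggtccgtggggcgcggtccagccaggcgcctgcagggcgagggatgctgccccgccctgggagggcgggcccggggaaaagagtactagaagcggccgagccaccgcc
Ms4a7, chr19:11336097-11336396, reverse strand: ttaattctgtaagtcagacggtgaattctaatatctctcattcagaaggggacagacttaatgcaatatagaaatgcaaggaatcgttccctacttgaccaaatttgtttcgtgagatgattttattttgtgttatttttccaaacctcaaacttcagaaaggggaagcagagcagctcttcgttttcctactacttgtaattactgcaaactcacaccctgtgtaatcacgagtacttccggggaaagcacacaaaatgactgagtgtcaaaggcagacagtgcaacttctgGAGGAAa
Ms4a7, chr19:11334646-11334945, reverse strand: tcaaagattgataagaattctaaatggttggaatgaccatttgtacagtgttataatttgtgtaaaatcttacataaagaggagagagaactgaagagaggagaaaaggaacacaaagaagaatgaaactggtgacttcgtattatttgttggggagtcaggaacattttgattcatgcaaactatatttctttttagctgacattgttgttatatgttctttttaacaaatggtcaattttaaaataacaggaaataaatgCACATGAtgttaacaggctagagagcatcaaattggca
Gpnmb, chr6:49036268-49036567, forward strand: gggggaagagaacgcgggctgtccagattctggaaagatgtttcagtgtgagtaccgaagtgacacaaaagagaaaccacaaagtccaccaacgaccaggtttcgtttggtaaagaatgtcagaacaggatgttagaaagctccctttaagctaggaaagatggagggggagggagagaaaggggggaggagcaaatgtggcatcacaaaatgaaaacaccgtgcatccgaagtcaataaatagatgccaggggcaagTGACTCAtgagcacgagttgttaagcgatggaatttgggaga
GAGGAA or its reverse complement was found 3 times in the Mrc1 promoter, beginning 180, 167 and 35 bases before the start, and 1 time in the first of the 2 Ms4a7 promoters, 43 bases after the start. The second Ms4a7 promoter held no GAGGAA, but an M-box 12 bases after the start, on the reverse strand, where it reads CACATGA. The Gpnmb promoter held TGACTCA 8 bases after the start, and the Lgals3 promoter held none of these motifs. Over the 11 marker promoters, 4 held GAGGAA, 2 held TGACTCA, 1 held an M-box and 1 the Maf core, and 3 held none of these. Of the 4 with GAGGAA, 2 are overlapping promoters of Ly6c2 that share the same 2 sites, so this stretch is counted more than once. Among all 32851 RefSeq promoters of the same length, 28.28% held GAGGAA, 5.2% TGACTCA, 7.4% an M-box and 4.67% the Maf core. A match describes the letters of the sequence and no binding was measured.

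Ly6c2 (ENSMUSG00000022584, chromosome 15, 75108158 to 75111970) encodes, together with its neighbour Ly6c1, the surface protein Ly6C, and in blood it marks inflammatory monocytes, while Ly6c1 is strongly expressed by endothelium. Both coding sequences are 396 bases long, and they differ at 9 bases (97.7% identity). The 300 bases from the start codon are shown, from the GENCODE M21 transcripts, since they bear on how far reads of the pair can be told apart. Capitals mark the 7 bases at which they differ.
Ly6c1: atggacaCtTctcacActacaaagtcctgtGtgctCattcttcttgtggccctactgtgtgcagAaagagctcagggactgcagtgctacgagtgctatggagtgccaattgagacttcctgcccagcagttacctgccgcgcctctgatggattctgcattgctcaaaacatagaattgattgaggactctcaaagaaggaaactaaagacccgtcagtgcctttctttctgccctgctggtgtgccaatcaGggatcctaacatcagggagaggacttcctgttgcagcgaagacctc
Ly6c2: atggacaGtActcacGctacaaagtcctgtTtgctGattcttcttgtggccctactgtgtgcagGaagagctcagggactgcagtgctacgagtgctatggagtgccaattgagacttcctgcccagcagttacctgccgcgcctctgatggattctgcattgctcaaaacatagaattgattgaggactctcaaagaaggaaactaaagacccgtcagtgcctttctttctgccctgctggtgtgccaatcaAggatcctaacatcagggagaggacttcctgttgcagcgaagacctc
The longest stretch with no difference ran over 188 bases. Over all transcripts of Ly6c2, 14.4% of the 50-base words were shared with another gene, mostly Ly6c1, and 32.8% of those of Ly6c1. How the authors' counting shared such reads was not given in the sources used here, so the level of Ly6c2 is uncertain.

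Ly6c2 was at 1.36, 0.176, 0.206 and 0.112 FPKM in control, that is 23, 3, 4 and 2 fragments, and at 1.80, 0.750, 2.49 and 1.93 FPKM in ANG II, that is 32, 14, 44 and 36 fragments. Control library 1 stood apart from the other control libraries and lay within the ANG II range, so that the groups overlapped. The means were 0.463 ± 0.599 and 1.74 ± 0.725 FPKM (mean ± SD, n = 4 each), and the log2 fold change was 0.94 (SE 0.275, adjusted p = 0.0253 by limma). The call was lost without any of control libraries 2, 3 or 4 (limma adjusted p = 0.0634, 0.0668 and 0.0705) and without any of ANG II libraries 1, 3 or 4 (limma adjusted p = 0.0607, 0.0654 and 0.0609), while without control library 1 the log2 fold change was 1.19 (limma adjusted p = 0.00356). Quantile normalization (0.75, limma adjusted p = 0.0655), no filter on low values (limma adjusted p = 0.0561) and a log2 fold change threshold of 1 also removed the call.

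Ly6c1 was at 191.9, 206, 194 and 241 FPKM in control and at 286, 205, 284 and 264 FPKM in ANG II. It was far more abundant than Ly6c2 in each library, by a factor of 114 to 273 in ANG II and of 141 in control library 1, which lay within the ANG II range. The other control libraries held 2 to 4 fragments of Ly6c2, too few for a ratio. The log2 fold change of Ly6c1 was 0.31 (SE 0.113, adjusted p = 0.0611 by limma). Of 8 Ly6 genes listed beside Ly6c2, 5 were tested, 2 rose and none was called lower. These were Ly6e (0.70) and Ly6a (0.60), the gene of stem cell antigen 1, which endothelium also expresses. With median-of-ratios scaling, which called 8.62% of all genes higher and 4.15% lower, neither was called, and 1 gene of the list was called without any of control libraries 1, 2 or 3 or ANG II libraries 1 or 3.

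Since FPKM is a level per length, the levels of the 9 markers can be set in order. In control the order of the means was Lyve1, Mrc1, Cd163, Lgals3, Ms4a7, Timd4, Folr2, Gpnmb and Ly6c2. Most neighbours in this order overlapped in range, among them Lyve1 (14.2 to 18.7 FPKM) and Mrc1 (12.7 to 14.6 FPKM). The exceptions were Cd163 (9.13 to 11.2 FPKM), which lay apart from both Mrc1 above and Lgals3 (2.46 to 5.30 FPKM) below, and Folr2 (0.975 to 1.30 FPKM), which lay above Gpnmb (0.572 to 0.963 FPKM). In ANG II the order was Lgals3, Mrc1, Ms4a7, Lyve1, Cd163, Gpnmb, Folr2, Ly6c2 and Timd4. There the ranges of Lgals3 and Mrc1 overlapped, as did those of Ms4a7, Lyve1 and Cd163 and those of the last 4 with their neighbours, whereas Mrc1 lay apart from Ms4a7 and Cd163 from Gpnmb.

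The recruited and resident markers were next compared with a list of general (pan-macrophage) genes, whose expression in other cell types was not measured. All 17 pan-macrophage genes rose, with log2 fold changes of 0.74 (Mertk, a receptor for the clearance of dying cells) to 2.28 (Mpeg1, a pore-forming protein of phagocytes), and a median of 1.43. Ctss (a lysosomal protease, 2.00) and Cd68 (a lysosomal glycoprotein, 1.71) followed Mpeg1. The summed FPKM of the 17 genes was 359 to 459 in control and 884 to 1225 in ANG II. The count of 17 was 16 with median-of-ratios scaling or no filter, and 15 with quantile normalization or above a log2 fold change of 1. It was 16 to 17 when a library was left out. The fold changes of Lyve1, Timd4, Folr2 and Cd163 lay below those of all 17 pan-macrophage genes, and those of Lgals3 and Ms4a7 above all 17. Mrc1 and Ly6c2 each lay above 2 of them, and Gpnmb above 13.

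For a test of the same contrast, the mean log2(FPKM + 1) of the 17 genes, which rose by 1.42, was subtracted from every gene in each library. On this scale 0.563% of all genes tested were called higher and 94.8% lower, so that a lower call says little about a marker, and genes of low FPKM are held down by the pseudocount. Lgals3 was called higher, by 1.53 (SE 0.141, adjusted p = 7.78e-08 by limma), and so was Ms4a7, by 1.18 (SE 0.137, adjusted p = 6.02e-07 by limma). A higher call on this scale was not particular to these markers or to macrophage genes. It was also given to 2 of the 17 pan-macrophage genes themselves, 5 of 18 further recruited genes and 1 of 15 recruitment signals. Among other cells, 3 of 6 fibroblast genes and all 5 erythroid genes were called higher, as were 2 of 5 proliferation genes. Gpnmb had a relative log2 fold change of 0.13 (SE 0.165, adjusted p = 0.464 by limma), which with a pseudocount of 0.1 was 0.72 (limma adjusted p = 0.00777) and on the recovered fragments 0.81 (limma adjusted p = 0.0257), and both of these were called. With that pseudocount 1.06% of all genes were called higher and 79.6% lower, and on the recovered fragments 0.917% and 71.7%. Mrc1 had a relative log2 fold change of -0.42 (SE 0.129, adjusted p = 0.0056 by limma) and was not called. It was called lower with a pseudocount of 0.1 (-0.51), on the recovered fragments (-0.52), relative to reference genes of at least 10 FPKM (-0.52) and with no fold change threshold, while relative to Csf1r, Fcgr1, Mertk and Adgre1 alone it was at -0.19 (limma adjusted p = 0.152). The relative values were -1.37 for Lyve1, -1.86 for Timd4, -0.99 for Cd163 and -0.92 for Folr2, all called lower like most genes. On the recovered fragments Folr2 was not called (-0.81, limma adjusted p = 0.0957). The relative value of Ly6c2 (-0.48) was not called, turned positive with a pseudocount of 0.1 (0.54) and was called lower in 7 of 19 alternatives.

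The same can be read from the level of each marker per unit of Csf1r, the receptor of the macrophage growth factor CSF1. Csf1r itself rose from 26.0 ± 1.46 to 60.5 ± 6.69 FPKM (mean ± SD, n = 4 each), so that of all genes tested 60.2% were lower and 1.82% higher per Csf1r with no overlap between the groups. A marker that is lower per Csf1r is therefore like most genes. Lyve1 per Csf1r was 0.526 to 0.722 in control and 0.244 to 0.307 in ANG II, and Timd4 per Csf1r was 0.0278 to 0.0716 and 0.00568 to 0.0163. Both were lower in all 4 ANG II libraries than in any control library, and so was Cd163 per Csf1r, at 0.353 to 0.438 in control and 0.184 to 0.263 in ANG II. Mrc1 per Csf1r overlapped, at 0.515 to 0.540 in control and 0.378 to 0.536 in ANG II. Lgals3 per Csf1r was 0.0911 to 0.195 in control and 0.504 to 0.643 in ANG II, Ms4a7 per Csf1r 0.0576 to 0.0957 and 0.272 to 0.298, and Gpnmb per Csf1r 0.0212 to 0.0355 and 0.0506 to 0.0866. These 3 markers were higher per Csf1r in all 4 ANG II libraries, while Folr2 and Ly6c2 overlapped. Lyve1 per Lgals3 was 3.42 to 5.78 in control and 0.453 to 0.533 in ANG II. These ratios describe the libraries and were not tested.

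**Figure D2:**
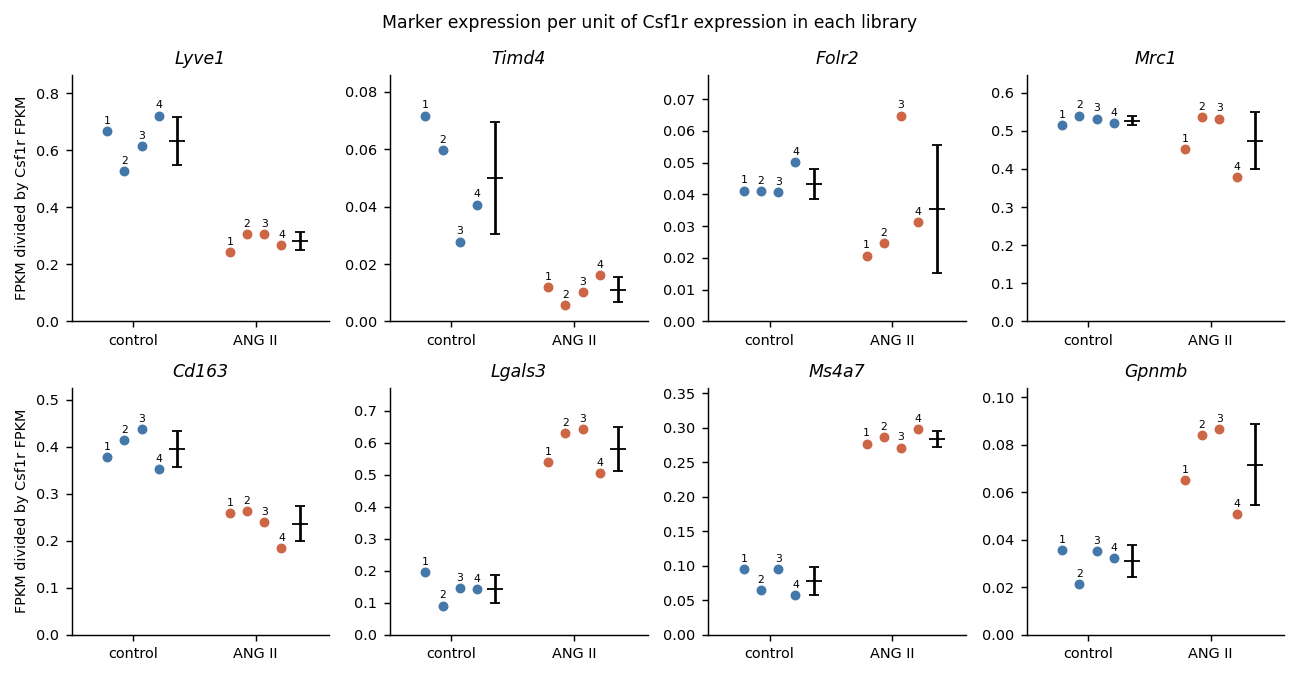
FPKM of 8 markers divided by the FPKM of Csf1r (each panel with its own axis from 0) in the 4 control (blue) and 4 ANG II (orange) libraries, numbered by replicate, with bars for the mean and SD of each group (n = 4). Lyve1 (0.633 ± 0.0834 in control, 0.282 ± 0.0306 in ANG II), Timd4 and Cd163 lie lower in ANG II without overlap, as did 60.2% of all genes tested, Lgals3, Ms4a7 and Gpnmb lie higher, as did 1.82%, and Mrc1 and Folr2 overlap.

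Further genes of resident macrophages were read from a list of 15, of which 14 were tested. Of these 6 rose and none was called lower, with a median log2 fold change of 0.49. The largest changes were those of Vsig4 (a complement receptor, 0.91), Maf (a transcription factor of resident macrophages, 0.87) and Stab1 (a scavenger receptor, 0.80). Selenop (0.42) and Fcgrt (0.39), the most abundant of those not called, passed the p-value threshold (limma adjusted p = 0.00601 and 0.00825) but not the fold change threshold. The count was 3 with median-of-ratios scaling or quantile normalization, which bring the median of all genes to 0.004 and -0.04. The main limma fit made no lower call in 8 lists named here (pan-macrophage, further resident, further recruited, recruitment signals, classical activation, Ms4a, Ly6 and lymphatic genes). In these lists voom called 0 lower, and 1 gene, Prox1, was lower at an unadjusted p-value under 0.05.

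Of 18 further genes of monocytes and recruited macrophages, 15 rose and none was called lower, with a median log2 fold change of 1.43. Ccr2, the receptor through which monocytes enter tissue, was at 3.85, 1.44, 2.43 and 0.919 FPKM in control and at 11.7, 9.80, 15.3 and 8.04 FPKM in ANG II, with no overlap. Its log2 fold change was 2.01 (SE 0.280, adjusted p = 0.000532 by limma). The largest changes of the list were those of Spp1 (osteopontin, 3.76), Fn1 (fibronectin, 3.63) and Ctsk (cathepsin K, 2.29), all of which fibroblasts can express too. Cd36 (0.00, limma adjusted p = 0.987) and Lpl (-0.10, limma adjusted p = 0.314), which handle fatty acids and are abundant in heart muscle, were not called.

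Among the signals that recruit and maintain macrophages, 15 of 17 genes were tested, 11 rose and none was called lower, with a median of 1.12. Among the genes that rose were the chemokines Ccl8 (2.78) and Ccl12 (1.68). Csf1, the main growth factor of macrophages, was at a mean of 30.2 ± 3.69 FPKM without and 32.7 ± 1.34 FPKM with ANG II (mean ± SD, n = 4 each), and it was not called (log2 fold change 0.12, limma adjusted p = 0.337). Ccl2, the ligand of CCR2, had a log2 fold change of 1.01 and was not called (limma adjusted p = 0.0592).

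Of 16 transcription factors of macrophages, 8 rose and 1 fell, or 6 and 1 with median-of-ratios scaling or quantile normalization. The factors with the largest changes were Spi1 (1.52), Irf8 (1.22) and Irf5 (1.13), and the factor that fell was Klf2 (-0.72, limma adjusted p = 0.000576), which is also abundant in endothelium. Stat6 (0.40) and Klf4 (-0.23) were not called.

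Macrophages are often described by alternative activation, driven by interleukin 4, and classical activation, driven by interferon gamma and microbial products. Of 8 alternative activation genes, 4 rose and 1 fell, or 4 and 2 with median-of-ratios scaling or quantile normalization. Chil3 (1.48), Cd209a (1.04), Tgm2 (0.99) and Clec10a (0.98) rose, and Retnla, a secreted protein of alternatively activated macrophages, fell by 1.50 on the log2 scale (limma adjusted p = 0.0233), from 6.14 ± 4.16 to 1.35 ± 0.990 FPKM (mean ± SD, n = 4 each) with overlapping groups. The call of Retnla was lost without control library 1 (-1.15) or 4 (-1.44), without ANG II library 1 (-1.39) or 2 (-1.29) and with no filter on low values, at limma adjusted p-values of 0.0501, 0.0574, 0.0628, 0.0621 and 0.0534. Of 10 classical activation genes, 6 rose and none was called lower, among them Cxcl10 (1.41), Il1b (1.38) and Cd86 (1.16). The classical count was 4 with median-of-ratios scaling or quantile normalization. Of 8 relatives of the resident receptors, 6 were tested and 2 rose, which were Mrc2 (1.80), a collagen receptor of fibroblasts, and Havcr2 (1.11), the gene of TIM3. Scara5, a scavenger receptor, had a log2 fold change of -0.53 and was not called (limma adjusted p = 0.136), but it was called lower with median-of-ratios scaling (-0.72), with quantile normalization (-0.80) and without ANG II library 3 (-0.71).

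**Figure D3:**
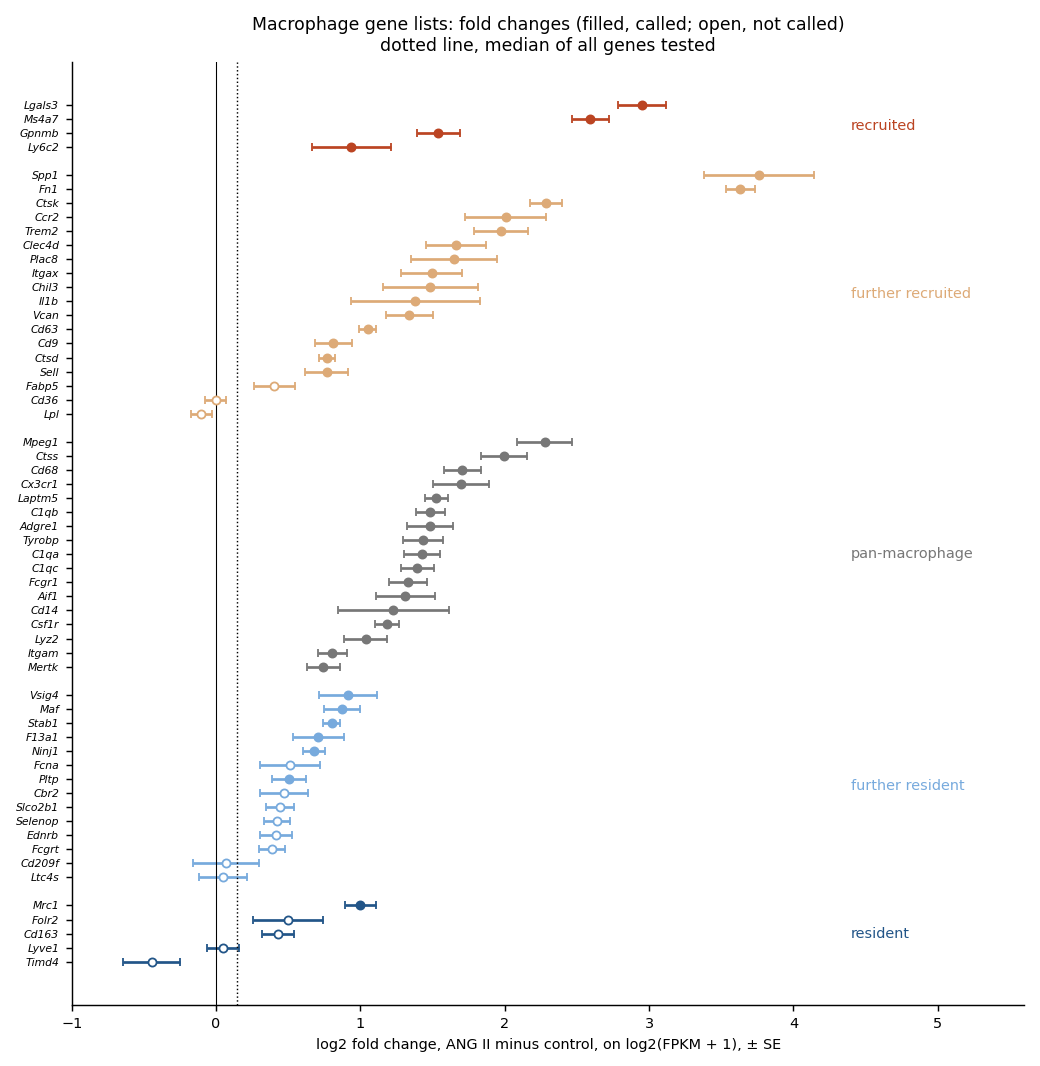
Log2 fold change (ANG II minus control, log2(FPKM + 1) scale, bars ± SE) of the 9 markers and of the pan-macrophage, further resident and further recruited genes, with filled points for called genes, a solid line at 0 and a dotted line at the median of all genes tested (0.15). Lgals3 (2.95) and Ms4a7 (2.59) lie above every pan-macrophage gene, and Lyve1 (0.05), Timd4 (-0.45), Folr2 (0.50) and Cd163 (0.43) below every one.

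Several transcripts of other cells moved with the treatment, and their part in the marker levels was not tested. Of 5 tested neutrophil genes (8 listed) 4 rose, with S100a9 at 1.49, and the summed FPKM of the list was 2.65 to 6.79 in control and 8.72 to 22.1 in ANG II. Of 6 T cell genes 2 rose (2.21 to 8.50 against 6.81 to 12.3 FPKM summed), or 5 without control library 1. Of 4 dendritic cell genes 1 rose (Flt3), and of B cell, NK cell, mast cell, adipocyte and mesothelial genes 0 were called by limma, 0 by voom and 0 had an unadjusted p-value under 0.05, while limma after quantile normalization called 1 mast cell gene (Mcpt4) lower. All 6 fibroblast genes rose, with Postn at 4.30, and all 5 proliferation genes rose, with Top2a at 2.05. The fibroblast count was 5 with median-of-ratios scaling and 4 with quantile normalization. The summed proliferation genes were at 5.02 to 10.2 FPKM in control and 23.2 to 56.9 FPKM in ANG II. Of 6 blood endothelium genes 1 rose (Pecam1, 0.52), and of 5 cardiomyocyte genes 2 fell (Tnni3, -0.58, and Myh6, -0.55). The blood endothelium count was 0 without ANG II library 1 or 3 and with median-of-ratios scaling or quantile normalization, and the cardiomyocyte count was 0 with quantile normalization. The summed atrial genes were at 1.15 to 48.8 FPKM in control and 52.5 to 230 FPKM in ANG II, and 1 of 3 was called, or 3 without control library 1 or 2 and 0 without control library 3 or 4 or ANG II library 1 or 3.

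All 5 erythroid genes, which encode globins and an enzyme of heme synthesis in red cells, rose, and they set control library 1 apart from the other control libraries. Their summed FPKM was 487, 96.8, 112 and 162 in control libraries 1 to 4 and 975, 2083, 1330 and 581 in ANG II libraries 1 to 4. Control library 1 was thus near ANG II library 4 in erythroid transcripts. It was also the highest control library in summed T cell (8.50 FPKM), neutrophil (6.79 FPKM) and pan-macrophage genes (459 FPKM). In the pair of control library 1 and ANG II library 4, Ly6c2 was at 1.36 and 1.93 FPKM, Ccr2 at 3.85 and 8.04 FPKM, Lgals3 at 5.30 and 31.2 FPKM, and Ms4a7 at 2.58 and 18.5 FPKM. Within ANG II, library 2, with the most erythroid transcripts, had the lowest Ly6c2 and Ms4a7, and library 4, with the fewest, had the lowest Lgals3 and Ccr2. Within control, library 1, with the most erythroid transcripts, had the highest Ly6c2, Ccr2, Lgals3 and Ms4a7. The part of blood cells in these levels was not tested.

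**Figure D4:**
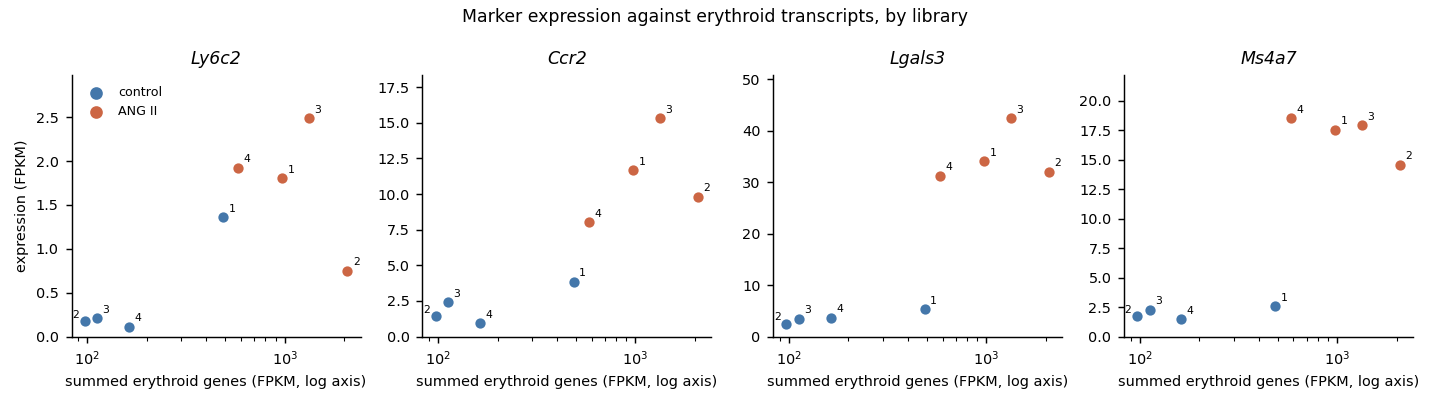
Expression (FPKM) of Ly6c2, Ccr2, Lgals3 and Ms4a7 against the summed FPKM of 5 erythroid genes (log axis) in the 4 control (blue) and 4 ANG II (orange) libraries, numbered by replicate. Control library 1 (487 FPKM of erythroid genes) lies near ANG II library 4 (581 FPKM) in Ly6c2, below it in Ccr2 (3.85 against 8.04 FPKM), and far below it in Lgals3 and Ms4a7. Control library 1 is also the highest control library in each panel.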

How the data were processed

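Poly(A) RNA of 8 left ventricle samples was sequenced in pairs on an Illumina instrument. The authors deposited 1 table of FPKM values with 1 column per library, no replicates pooled and 0 columns left unmapped. The submitters' processing notes name HISAT, Bowtie2 and RSEM, and the genome build, annotation and use of strand are not given in the sources used here. Groups were taken from the treatment labels. Where nothing in the labels named separate preparations, p-values measure only the spread between these samples.

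Tests were run on log2(FPKM + 1) for genes whose mean reached 0.1 FPKM, with limma 3.58.1 in R 4.3.3 (eBayes with a variance trend, no covariate). The study names limma and both thresholds without a log base, and base 2, the pseudocount of 1 and the filter were choices made here. The members, the 28 gene lists and the tests were chosen with earlier results of these data known. From each list the text names the markers, up to 3 called genes with the largest change, up to 2 abundant genes not called, and Ly6c1 and Ccr2. Csf1r, Mertk, Cd14, Klf2, Lgals2, Tgm2, Clec10a, Mcpt4 and Scara5 were named after their values were seen. Some genes, 1 of the 10 markers among them, are not reported here, a choice made without regard to their values.

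Fragments were recovered from the FPKM steps with GENCODE M21 transcript lengths: 98.4 to 98.6% of values under 60 fragments were whole within 0.1. Voom on these fragments was added after seeing the data. Floors of 3 fragments cover counting error only. Python 3.11.15 and pandas 2.3.3 were used for summaries. The limma fit was tested on simulated data.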

Additional observations from a re-analysis of the deposited data

Results flagged for a closer look

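In 2 of the 56 groups of 4 libraries examined, a library lay farther from the others than Dixon's 95% critical value for 4 values allows, and chance flags about 1 in 20 groups. Ly6c2 was at 1.36 FPKM in control library 1, against 0.112 to 0.206 FPKM in the other control libraries. Cd14, a co-receptor for bacterial lipopolysaccharide, was at 52.2 FPKM in ANG II library 4, against 12.5 to 16.1 FPKM in the other ANG II libraries.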

How the results depend on the processing

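The 4 recruited markers called were 3 or 4 and the 2 markers called higher relative to the pan-macrophage genes were 2 or 3 under the alternatives run, and Lgals3, Ms4a7 and Gpnmb kept their calls in all 20. The 1 resident marker called became 2 with quantile normalization or no fold change threshold and 0 above a log2 fold change of 1, with 1 to 2 when a library was left out. The marker added with quantile normalization, or without control library 3, was Timd4, called lower. The marker added with no fold change threshold, or without ANG II library 4, was Cd163, called higher. The 6 further resident genes called became 3 with median-of-ratios scaling, 3 with quantile normalization, 0 above a log2 fold change of 1 and 10 with no fold change threshold (5 to 8 when a library was left out). The log2 fold change of Lyve1, never called, was -0.17 with median-of-ratios scaling, -0.19 with quantile normalization and -0.0935 without mitochondrial and the 10 most abundant genes in the scaling, and it was -0.0173, -0.0005 and -0.037 without control library 2, control library 3 or ANG II library 3 (range -0.037 to 0.107 over libraries left out). Relative to the pan-macrophage genes, Ly6c2 was at 0.54 and 0.84 with a pseudocount of 0.1 and with voom, neither of these called, and it was called lower in 7 of 19 alternatives (-0.48 to -0.58). Ly6c2 lost its call in 9 of 20 alternatives (limma adjusted p over all 20 from 0.00356 to 0.0705), and Mrc1 in 1, the higher fold change threshold. The causes were not tested. With the replicate number as a block, the counts were 1 resident, 4 recruited and 2 relative calls, and no call of a marker changed. Same-numbered libraries deviated with correlations of -0.016, 0.062, -0.032 and -0.0093, within the range of -0.088 to 0.094 of libraries with different numbers. With so few libraries such values cannot show whether same-numbered libraries shared a preparation. Over all genes tested, 2708 higher and 273 lower calls became 1670 and 804 with median-of-ratios scaling, 1413 and 986 with quantile normalization, 767 and 28 above a log2 fold change of 1, and 5496 and 951 with none. Ly6c2, Folr2 and Timd4 rested on at most 61 fragments per library, which limits what could be detected.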
